A study of Mus musculus with 14 samples.

Results

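The genes described here encode 7 laminin chains, both nidogens and perlecan, proteins that build the basement membrane. They were taken from the deposited counts by gene symbol (Lama1, Lama2, Lama4, Lama5, Lamb1, Lamb2, Lamc1, Nid1, Nid2 and Hspg2), and all 10 were found among the 17927 genes listed. A basement membrane is a thin sheet of matrix that lies under the pia, around every brain capillary and under the epithelium of the choroid plexus. A laminin molecule joins an alpha, a beta and a gamma chain into a cross-shaped trimer that assembles into a network, which nidogens and the heparan sulfate proteoglycan perlecan tie to a network of type IV collagen. Radial glial endfeet attach to the pial sheet through integrins and dystroglycan, and breaks in that sheet are known to let neurons migrate out of the cortex.

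RNA-SEQ was done on 14 whole brains at postnatal day 2, from 7 untreated WT and 7 untreated Capn15 KO animals of 6 litters. Capn15 encodes a non-classical calpain, an intracellular protease. The study's methods name a lacZ-Neo and a floxed line of Capn15, both made in C57BL/6J mice, and do not say which of them gave these knockout brains. The WT group held 2 females and 5 males, and the Capn15 KO group 4 females and 3 males. In litters A to E each Capn15 KO brain was of the other sex than its WT littermates, and in litter F both brains were male. Pairs within litters A to E therefore compare the sexes as well as the genotypes. The labels name the cell type neurons, but markers of vessels, leptomeninges and choroid plexus were counted in all 14 libraries. Cldn5, the defining gene of endothelium, lay between 48.3 and 65.1 CPM, the read count scaled to library size, Pdgfrb of pericytes between 33.0 and 47.2, Dcn of leptomeninges between 31.4 and 47.7, and Folr1 of choroid plexus between 5.94 and 10.3. Slc1a3 of radial glia and astrocytes lay between 431 and 596 CPM, Tubb3 of neurons between 2473 and 2728, and Acta1 of skeletal muscle between 4.21 and 6.68.

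Library totals ran from 37.6e6 to 70.9e6 counts. The counts of single members ran from 490 (Lama5) to 5986 (Lamc1) per library. Capn15 itself lay between 18.7 and 27.3 CPM in WT (median 26.2) and between 12.2 and 20.2 CPM in Capn15 KO (median 13.9). The mean log2 CPM was 0.82 lower in Capn15 KO (exact permutation test over libraries, two-sided, p = 0.00117), and lower in 6 of 7 litter pairs. After adjustment over all genes, no gene passed 0.05 in this permutation test. When all genes were fitted by edgeR (quasi-likelihood, litter and sex as covariates), Capn15 had a log2 fold change of -0.81 (-42.8%, 95% interval -52.0% to -31.8%). Its FDR was 0.0747, so that it did not pass 0.05 there either. Litter F was the exception: the library labelled WT replicate 7 was the lowest of its group, and the library labelled Capn15 KO replicate 7 the highest of its group. Results that moved most without litter F are therefore also given without it. In whole tissue, fewer cells of a type and less RNA per cell cannot be told apart.

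In the GENCODE M21 annotation of GRCm38 the alpha chain genes are Lama1 (chr17:67697259-67822647, plus strand), Lama2 (chr10:26980036-27619758, minus strand), Lama4 (chr10:38965515-39110188, plus strand) and Lama5 (chr2:180176373-180225859, minus strand). The beta and gamma chain genes are Lamb1 (chr12:31265234-31329644, plus strand), Lamb2 (chr9:108479736-108490530, plus strand) and Lamc1 (chr1:153218922-153332786, minus strand). The nidogen genes are Nid1 (chr13:13437551-13512269, plus strand) and Nid2 (chr14:19751265-19811787, plus strand), and perlecan is encoded by Hspg2 (chr4:137468769-137570630, plus strand). Counts were deposited per gene, so that isoforms were not told apart.

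The sequences upstream of the genes are shown first, for 4 members whose levels were correlated across libraries, partly through 1 brain, as given later. RefSeq promoter entries (GRCm38.p6) were matched by symbol for 6 of the 10 genes. Each window was the 250 bases before the annotated start, and the stretch printed stops at the first base that GENCODE M21 gives as exon of the gene. Sequences run 5′ to 3′ on the strand of the gene, and capitals mark GC boxes (GGGCGG, or CCGCCC on the other strand), a short motif that Sp-family factors bind.
Hspg2 (chr4:137468553-137468768, plus strand): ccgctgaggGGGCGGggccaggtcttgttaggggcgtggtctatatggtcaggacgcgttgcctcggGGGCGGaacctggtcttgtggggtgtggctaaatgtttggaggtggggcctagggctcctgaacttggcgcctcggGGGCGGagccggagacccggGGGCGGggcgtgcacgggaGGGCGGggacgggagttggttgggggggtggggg
Nid1 (chr13:13437352-13437550, plus strand): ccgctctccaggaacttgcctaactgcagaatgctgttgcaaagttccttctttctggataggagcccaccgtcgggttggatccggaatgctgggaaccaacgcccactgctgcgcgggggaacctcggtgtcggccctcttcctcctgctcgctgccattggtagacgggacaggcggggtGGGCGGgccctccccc
Lama5 (chr2:180225860-180226109, minus strand): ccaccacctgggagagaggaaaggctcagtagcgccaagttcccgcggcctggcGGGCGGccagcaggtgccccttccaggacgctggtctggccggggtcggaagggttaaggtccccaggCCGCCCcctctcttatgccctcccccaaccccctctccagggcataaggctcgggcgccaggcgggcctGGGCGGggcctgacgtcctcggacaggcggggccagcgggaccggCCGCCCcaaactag
Lama2 (chr10:27616943-27617192, minus strand): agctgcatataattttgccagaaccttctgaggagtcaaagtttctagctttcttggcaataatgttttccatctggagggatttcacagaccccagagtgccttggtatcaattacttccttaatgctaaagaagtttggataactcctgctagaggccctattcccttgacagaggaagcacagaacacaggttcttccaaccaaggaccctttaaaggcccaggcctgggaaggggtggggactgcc
The Hspg2 window held 5 GC boxes and was 70.0% G and C, the Lama5 window held 4 and was 72.4%, and the Nid1 window held 1 and was 64.4%. The Lama2 window held no GC box and was 47.2% G and C, and it lay within the span that GENCODE gives the gene, upstream of the shorter start used by RefSeq. Of the other matched members, the Lamb1 window held 2 GC boxes and was 62.0% G and C, and the Lamb2 window held none and was 43.6%. A GC box was present in 32.7% of the 32851 windows of the same length in the table, whose median G and C content was 52.4%. CCAAT was found once in the Lamb1 and once in the Nid1 window, against 33.8% of all windows, and TATAAA in none of the 6, against 12.4%. These matches describe letters only.

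Levels were compared between genes as CPM per kb of exon, the union of all annotated exons of a gene. Nid1, which encodes the nidogen that bridges laminin and type IV collagen, was the highest at 11.8 ± 0.825 CPM per kb (SD, n = 14). Lamc1, the gamma 1 chain that most laminins contain, followed at 10.4 ± 0.637. Nid1 lay above Lamc1 in 14 of 14 libraries. Next came Lamb2 (the beta 2 chain, 8.30 ± 0.593), Nid2 (the second nidogen, 8.16 ± 0.805) and Lamb1 (the beta 1 chain, 7.56 ± 0.522), which were close to each other. Lamb2 exceeded Nid2 in 8 of 14 libraries and Nid2 exceeded Lamb1 in 11 of 14, so that the order of these 3 neighbours was not fixed.

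The alpha chains, which carry the main receptor-binding domains of laminin, were lower than the beta and gamma chains in every library per kb of exon, and in 9 of 14 libraries per kb of the longest transcript. Lama4, the alpha 4 chain of vessel walls, had 4.34 ± 0.262 CPM per kb, and Lama1, the alpha 1 chain of the embryonic and pial sheet, 3.28 ± 0.361. Lama2, the alpha 2 chain that is lost in a congenital muscular dystrophy, had 1.68 ± 0.138. Hspg2, which encodes perlecan, had 1.63 ± 0.220 and changed place with Lama2 between libraries, with Lama2 higher in 9 of 14. Lama5, the alpha 5 chain, was the lowest at 1.12 ± 0.0781. The choice of length matters for genes with long alternative exons: per kb of the longest transcript Lamb1 had 13.0 and Lama4 8.67 CPM per kb, and Lamb1 then ranked 2 among the 10 genes in place of 5, while the ranks of Nid1, Lama1, Lama2, Hspg2 and Lama5 did not depend on it.

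**Figure D1:**
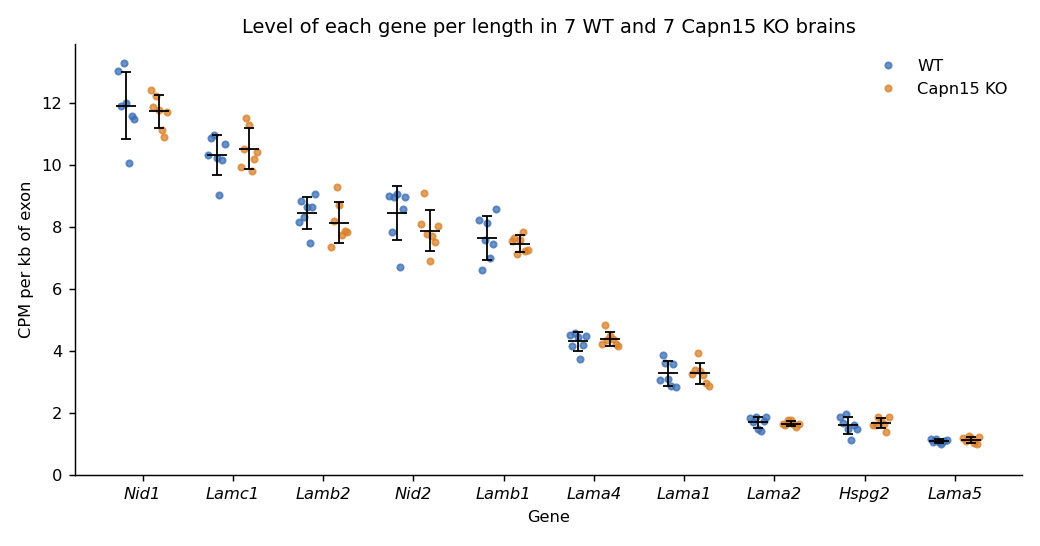
Each point is 1 brain, the vertical axis gives CPM per kb of exon and the genes are ordered by their mean, with WT in blue, Capn15 KO in orange, and black bars for the group mean and SD (n = 7 each). Nid1 and Lamc1 are the highest, Lama5 is the lowest at 1.12 CPM per kb, and WT and Capn15 KO points overlap for all 10 genes.

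The main comparison asked whether loss of Capn15 alters the mRNA of these proteins in the newborn brain. With litter and sex as covariates, edgeR's quasi-likelihood test put none of the 10 genes under a false discovery rate (FDR) of 0.05, a threshold that 0.00558% of all 17927 genes passed. At an unadjusted p under 0.05 there was 1 member, Hspg2, which was higher in Capn15 KO, against 5.14% of all genes in either direction and 2.88% higher. The ranges of the 2 groups overlapped for each of the 10, where 0.00558% of all genes had ranges that did not. The median log2 fold change of the members was 0.025 (Capn15 KO minus WT), beside 0.0015 over all genes, with 6 members above 0 and 4 below.

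Hspg2 had a lowest, median and highest level of 16.1, 23.2 and 27.9 CPM in WT and of 20.0, 23.6 and 26.7 CPM in Capn15 KO. The Capn15 KO range thus lay inside the WT range, whose lower end was WT replicate 5. The fitted difference was 11.4% higher in Capn15 KO (95% interval 2.20% to 21.4%, log2 fold change 0.16, SE 0.06, FDR 0.841). This estimate depended on the sex covariate and on single libraries, which moved it both ways. With 1 library left out at a time it ran from 0.11 to 0.23 on the log2 scale, with no FDR under 0.369. The Hspg2 log2 fold change was 0.075 with litter but without sex, 0.064 with genotype alone, 0.11 without WT replicate 5, and between 0.12 and 0.13 without WT replicate 7, Capn15 KO replicate 7 or both libraries of litter F, and in none of these settings was the unadjusted p under 0.05.

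Nid2 had the lowest point estimate. Its level was 34.8, 46.4 and 47.0 CPM in WT and 35.7, 40.3 and 47.0 CPM in Capn15 KO (lowest, median, highest), so that the medians differed but the ranges nearly coincided. The fitted difference was -6.83% (95% interval -15.3% to 2.43%, FDR 0.99996). It depended on litters C and D: the log2 fold change of -0.10 became -0.22 without WT replicate 5 or without Capn15 KO replicate 5 (FDR 0.363 without the WT library and 0.360 without the other) and 0.0044 without WT replicate 4 or without Capn15 KO replicate 4. Nid2 shares its locus with Rtraf on the opposite strand, and the strand setting of the count is not given in the sources used here, so that reads of the 2 genes may not be separated.

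None of the laminin chains had an interval that left 0 out. Lamc1 had 74.7, 85.5 and 90.9 CPM in WT and 81.1, 86.3 and 95.3 CPM in Capn15 KO, a fitted difference of 3.32% (95% interval -1.16% to 7.99%), the narrowest interval among the laminins. Lama1 had 27.5, 29.99 and 37.6 CPM in WT and 27.8, 31.6 and 37.9 CPM in Capn15 KO, a difference of 2.44% (-4.46% to 9.84%). Lama4 ran from 45.01 to 55.4 CPM in WT and from 50.1 to 58.4 CPM in Capn15 KO (2.80%, -3.64% to 9.67%). The intervals of these 3 chains together stayed between -4.46% and 9.84%.

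Of the other chains, Lama2 ran from 23.1 to 30.7 CPM in WT and from 25.1 to 28.8 CPM in Capn15 KO (1.01%, -5.33% to 7.79%). Lama5 ran from 11.3 to 13.2 CPM in WT and from 11.5 to 14.1 CPM in Capn15 KO (4.12%, -3.15% to 11.9%), and was higher in the Capn15 KO brain of 6 of 7 litter pairs (exact sign-flip test, two-sided, p = 0.172). Lamb1, from 65.5 to 85.1 CPM in WT and from 70.7 to 77.8 CPM in Capn15 KO, gave -2.08% (-8.98% to 5.34%). Lamb2, from 45.4 to 55.1 CPM in WT and from 44.7 to 56.5 CPM in Capn15 KO, gave -3.16% (-9.02% to 3.08%). For Nid1, from 69.8 to 92.3 CPM in WT and from 75.8 to 86.3 CPM in Capn15 KO, the estimate was -0.0304% (-4.73% to 4.90%), the nearest to 0 of the 10. Without litter F the log2 fold change went from -0.030 to 0.0095 for Lamb1, from -0.046 to -0.016 for Lamb2, from 0.015 to 0.051 for Lama2 and from 0.040 to 0.067 for Lama4, with no call. Across the members the 95% intervals together ran from -15.3% to 21.4%. Exact permutation tests of the log2 CPM of single genes, with neither litter nor sex, gave p between 0.223 (Nid2) and 0.944 (Lama1), where 1.73% of all genes had an unadjusted p under 0.05.

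**Figure D2:**
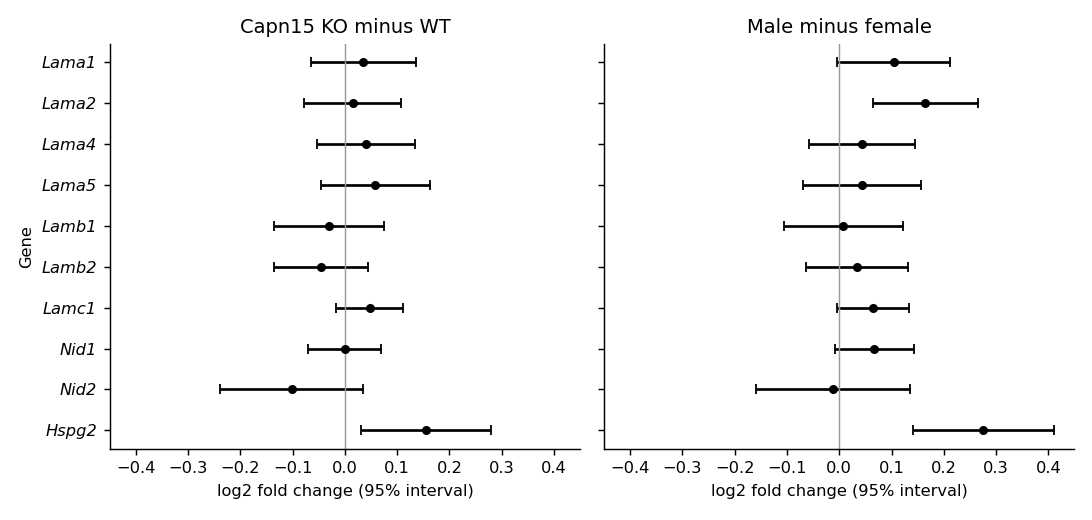
Points are log2 fold changes of the 10 genes from edgeR's quasi-likelihood fit and bars are 95% intervals, for Capn15 KO minus WT on the left and male minus female on the right. On the left only the interval of Hspg2 (0.03 to 0.28) leaves 0 out, and on the right those of Hspg2 (0.14 to 0.41) and Lama2 (0.06 to 0.27) do.

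The same fit gave the difference between the 8 male and 6 female brains. None of the 10 genes passed FDR 0.05, which 0.0669% of all genes did, and 2 of 10 had an unadjusted p under 0.05, both higher in males, against 5.04% of all genes in either direction and 2.63% higher in males. Hspg2 had 16.1, 21.9 and 26.7 CPM in females and 21.3, 24.2 and 27.9 CPM in males (lowest, median, highest), with ranges that overlapped. Its fitted log2 fold change was 0.28 (male minus female, SE 0.06, FDR 0.337), or 1.21-fold higher in males. By the likelihood ratio test of edgeR, the single setting that called it, its FDR was 0.0181. Lama2 had 23.1, 25.6 and 28.8 CPM in females and 26.7, 28.5 and 30.7 CPM in males, a log2 fold change of 0.16 (SE 0.05, FDR 0.842). Without WT replicate 5, a female, the log2 fold changes were 0.22 for Hspg2 and 0.15 for Lama2, both still at an unadjusted p under 0.05. Without litter F, Lamc1 joined Hspg2 and Lama2 at that level. No member passed FDR 0.05 for a difference in the genotype effect between the sexes, a test that 0.00558% of all genes passed. The gene that passed was Capn15 itself (FDR 0.0475). Only in litter F were WT and Capn15 KO brains of the same sex, so that with litter terms the test rested on that litter. Litter F was also the exception in Capn15 level. The test therefore cannot decide whether the genotype effect on the members differs between the sexes.

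More members passed the test for litter than for genotype or sex. Lama1 (FDR 0.00970), Nid1 (0.0165), Lamc1 (0.0280) and Hspg2 (0.0453) passed FDR 0.05 in edgeR's quasi-likelihood test of the litter terms, 4 of 10 beside 29.6% of all genes, so that the members' share was near that of genes in general. Lama1 averaged 35.8 CPM over the 4 brains of litter B and 27.6 CPM over the 2 of litter F, and the litters did not share values: litter B ran from 32.9 to 37.9 and litter F from 27.5 to 27.8. Hspg2 averaged 25.3 CPM in litter B and 19.8 CPM in litter D. Litter D was also the lowest for Nid1 (73.6 CPM against 88.5 in litter A) and for Lamc1 (77.9 CPM against 90.7 in litter B). The same 4 were called without WT replicate 2, 4 or 7, without Capn15 KO replicate 2, 4 or 7, and without litter F. Leaving out another library gave fewer calls: Lama1 without WT replicate 1 or 5, Lama1 and Nid1 without WT replicate 3 or Capn15 KO replicate 1 or 3, and Lama1, Nid1 and Lamc1 without replicate 6 of either group. Without Capn15 KO replicate 5 the calls were Lama1, Nid1 and Nid2.

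The low values of litter D came mostly from 1 brain. WT replicate 5 was below the mean of all libraries for 10 of 10 members, by a median of 0.21 on the log2 scale, and was the lowest of the 14 libraries for 7 of them: Lama2, Lama4, Lama5, Lamc1, Nid1, Nid2 and Hspg2. Among the 15227 genes with a mean of at least 1 CPM it was the lowest for 4.71%, and its median deviation over them was 0.0014. The deviation was -0.53 for Hspg2, -0.27 for Nid2, -0.24 for Lama2 and -0.23 for Nid1, against -0.11 for Lamb1. The library held 45.8e6 counts, within the range of the others. The summed leptomeninges markers (8 of 8 above 0 in every library), mostly Col3a1 and Col1a2, were also lowest there, at 406 CPM against 460 to 600 in the other 13. So were the 5 red blood cell markers, at 31.0 CPM against a lowest value of 35.4 elsewhere. The 9 endothelial markers ranked 3 from the lowest (264 CPM, with the others at a median of 284), and the 6 neuronal markers ranked 8. Their part in the low values was not tested. Capn15 KO replicate 6 was also below the mean for 10 of 10 members, by a median of 0.11, without being the lowest for any.

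**Figure D3:**
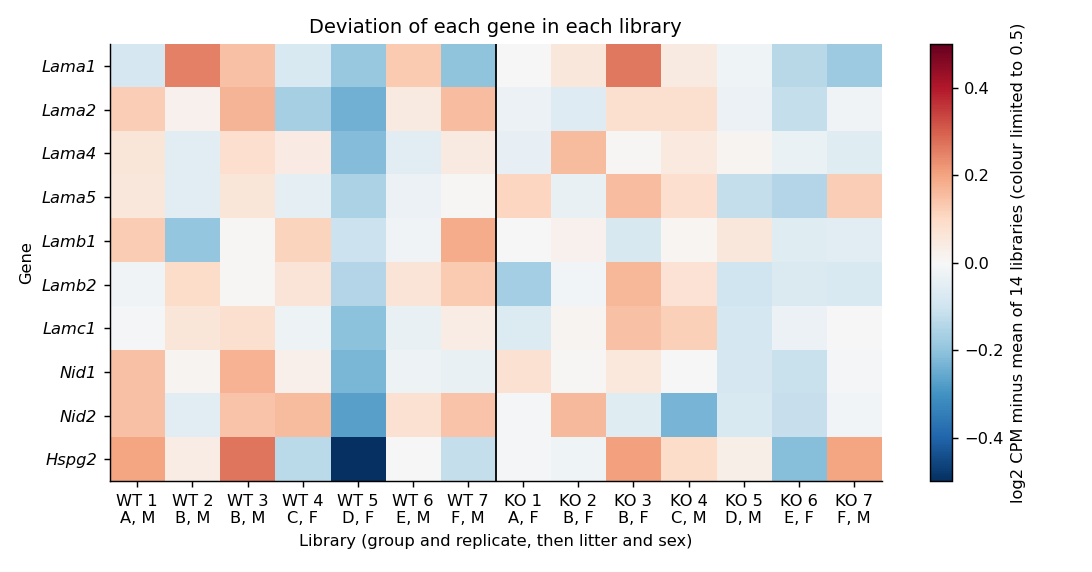
Each cell is the log2 CPM of 1 gene in 1 library minus its mean over the 14 libraries, from blue (lower) to red (higher), with litter and sex under each library. The column of WT replicate 5 is blue for all 10 genes, down to -0.53 for Hspg2, which is beyond the colour limit.

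With genotype means subtracted, 44 of the 45 pairs of members had a correlation above 0 across the 14 libraries, at a median Pearson r of 0.52. Without WT replicate 5 the median was 0.22 and 31 of 45 were above 0, so that much of the shared variation rested on that brain. The closest pairs were Nid1 with Hspg2 (r = 0.87, and 0.73 without WT replicate 5), Lamb2 with Lamc1 (0.86 and 0.80), Lama2 with Hspg2 (0.81 and 0.66) and Lama5 with Nid1 (0.76 and 0.72). Hspg2, Nid1, Lama5 and Lama2, whose upstream sequences are given above, had r from 0.68 (Lama2 with Nid1) to 0.87 among themselves, and from 0.42 (the same pair) to 0.73 without WT replicate 5. Lama1 and Lamb1, chains that can join in the same trimer, were the pair below 0, with r = -0.44, and -0.66 without WT replicate 5. These correlations are descriptions: all pairs share the same 14 libraries, their litters and their sexes.

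The balance between chains was described by ratios per length. Per kb of exon, the ratio of the 4 alpha chains together to Lamc1 was 1.005 ± 0.0258 in WT and 0.994 ± 0.0446 in Capn15 KO (SD, n = 7 each). Lamb1 and Lamb2 together were 1.56 ± 0.0923 times Lamc1 in WT and 1.48 ± 0.0552 times in Capn15 KO (exact permutation test, two-sided, p = 0.0874). Both of these ratios were added after the data were seen. Per kb of the longest transcript the ratios to Lamc1 were 1.42 ± 0.0331 and 1.41 ± 0.0662 for the alpha chains and 1.99 ± 0.133 and 1.89 ± 0.0879 for the beta chains. Per kb of exon, Lamb2 stood to Lamb1 at 1.11 ± 0.112 in WT and 1.09 ± 0.1104 in Capn15 KO, and ran from 0.974 in Capn15 KO replicate 1 to 1.34 in WT replicate 2. This order turns with the length used, since per kb of the longest transcript Lamb2 stood to Lamb1 at 0.700 ± 0.0705 in WT and 0.689 ± 0.0696 in Capn15 KO. Nid2 stood to Nid1 at 0.710 ± 0.0487 and 0.672 ± 0.0560.

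Lama4 made up 41.5% ± 2.04 of the alpha chain transcripts in WT and 41.9% ± 1.87 in Capn15 KO. Lama1 made up 31.6% ± 2.80 and 31.4% ± 1.72, Lama2 16.3% ± 1.12 and 15.8% ± 0.643, and Lama5 10.6% ± 0.409 and 10.9% ± 0.870. The order of these shares was the same in both groups. Exact permutation tests of the 6 ratios planned, Lamb2 to Lamb1, Nid2 to Nid1 and the 4 shares, gave two-sided p between 0.203 and 0.922 (adjusted over the 6, between 0.894 and 0.922). Per kb of the longest transcript Lama4 made up 54.0% ± 1.93 in WT and 54.6% ± 1.85 in Capn15 KO, and Lama5 6.90% ± 0.203 and 7.09% ± 0.599, in the same order of the 4 chains.

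**Figure D4:**
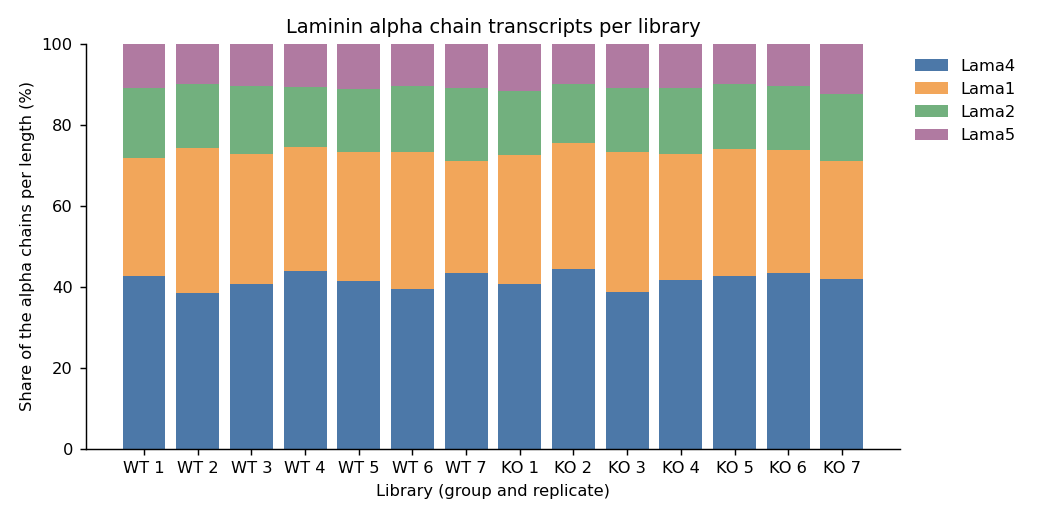
Each bar is 1 library and its colours give the share of Lama4, Lama1, Lama2 and Lama5 in the summed alpha chain transcripts, in percent of CPM per kb of exon. Lama4 is the largest share in all 14 libraries, from 38.5% to 44.3%, and Lama5 the smallest, from 9.92% to 12.3%.

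Member levels were then set beside marker lists of the cells that make or border basement membranes, across the 14 libraries and with genotype means subtracted. Of 60 relations (10 members, 6 lists), 8 had an adjusted permutation p under 0.05 by Pearson r. By Spearman rho, Lamc1 with choroid plexus (adjusted permutation p = 0.0721) and Nid1 with leptomeninges (0.0938) did not pass. Nid2 passed by rho with endothelium (rho = 0.80) and with pericytes (0.78), both at an adjusted permutation p of 0.0132. Lama4 followed the leptomeninges markers (Pearson r = 0.89, permutation p = 8e-05, adjusted 0.0048, Spearman rho = 0.79, permutation p = 0.00119, r = 0.69 without the 2 farthest libraries), and so did Nid2 (r = 0.84, permutation p = 0.00031, adjusted 0.00885, rho = 0.75, permutation p = 0.00301, r = 0.57 without the 2 farthest). Both relations were as large with litter means subtracted (r = 0.88 and r = 0.89), and their adjusted p was 0.0528 and 0.0995 without WT replicate 5. The leptomeninges sum was mostly 2 collagen genes, Col3a1 and Col1a2. Their means were 214 and 146 of 520 CPM in WT, and 200 and 137 of 494 CPM in Capn15 KO. Relations with this list thus largely describe these collagen genes. Lamb1 followed the endothelial markers (r = 0.74, permutation p = 0.00273, adjusted 0.0273, rho = 0.79, permutation p = 0.00103, r = 0.84 without the 2 farthest), with r = 0.90 when litter means were subtracted and an adjusted p of 0.0787 without WT replicate 5. With litter means subtracted these members followed other lists as well, Lamb1 those of leptomeninges (r = 0.92, adjusted exact permutation p = 0.0260), pericytes (0.83, adjusted 0.0293) and radial glia and astrocytes (0.77, adjusted 0.0260), Lama4 and Nid2 that of endothelium (0.81 and 0.75, adjusted 0.0293 for both), and Nid2 that of radial glia and astrocytes (0.60, adjusted 0.0434). The relations were therefore not particular to the list named. Each litter holds 2 or 4 libraries, too few for a correlation of its own.

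Lama1 moved against the radial glia and astrocyte markers (r = -0.79, permutation p = 0.00059, adjusted 0.00885, rho = -0.82, permutation p = 0.00064, r = -0.67 without the 2 farthest). Without WT replicate 5 it was the single relation with an adjusted permutation p under 0.05 by Pearson r (r = -0.83, adjusted 0.0300, and 0.0684 by rho). However, the relation lay mostly between litters, since r was -0.39 (exact permutation p within litters = 0.284) with litter means subtracted. For the other 4 relations the adjusted permutation p was above 0.05 in both of these settings, though r did not fall in each case. Lamb2 and Lamc1 followed the choroid plexus markers (r = 0.80, permutation p = 0.00052, adjusted 0.00885, rho = 0.90, permutation p = 5e-05, r = 0.73 without the 2 farthest, and r = 0.75, permutation p = 0.00159, adjusted 0.0191, rho = 0.67, permutation p = 0.0108, r = 0.51 without the 2 farthest). The sum of these markers was mostly Ttr, at a mean of 846 of 915 CPM in WT and 680 of 740 CPM in Capn15 KO. Both relations thus largely describe Ttr. Nid1 followed the pericyte markers (r = 0.72, permutation p = 0.0032, adjusted 0.0274, rho = 0.71, permutation p = 0.00507, r = 0.63 without the 2 farthest) and the leptomeninges markers (r = 0.71, permutation p = 0.00637, adjusted 0.0478, rho = 0.63, permutation p = 0.0172, r = 0.59 without the 2 farthest). With litter means subtracted r was 0.80, 0.51, 0.72 and 0.56 in this order, with adjusted p between 0.102 and 0.606. Without WT replicate 5 r was 0.72, 0.63, 0.71 and 0.42 in the same order, with adjusted permutation p between 0.0787 and 0.419.

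**Figure D5:**
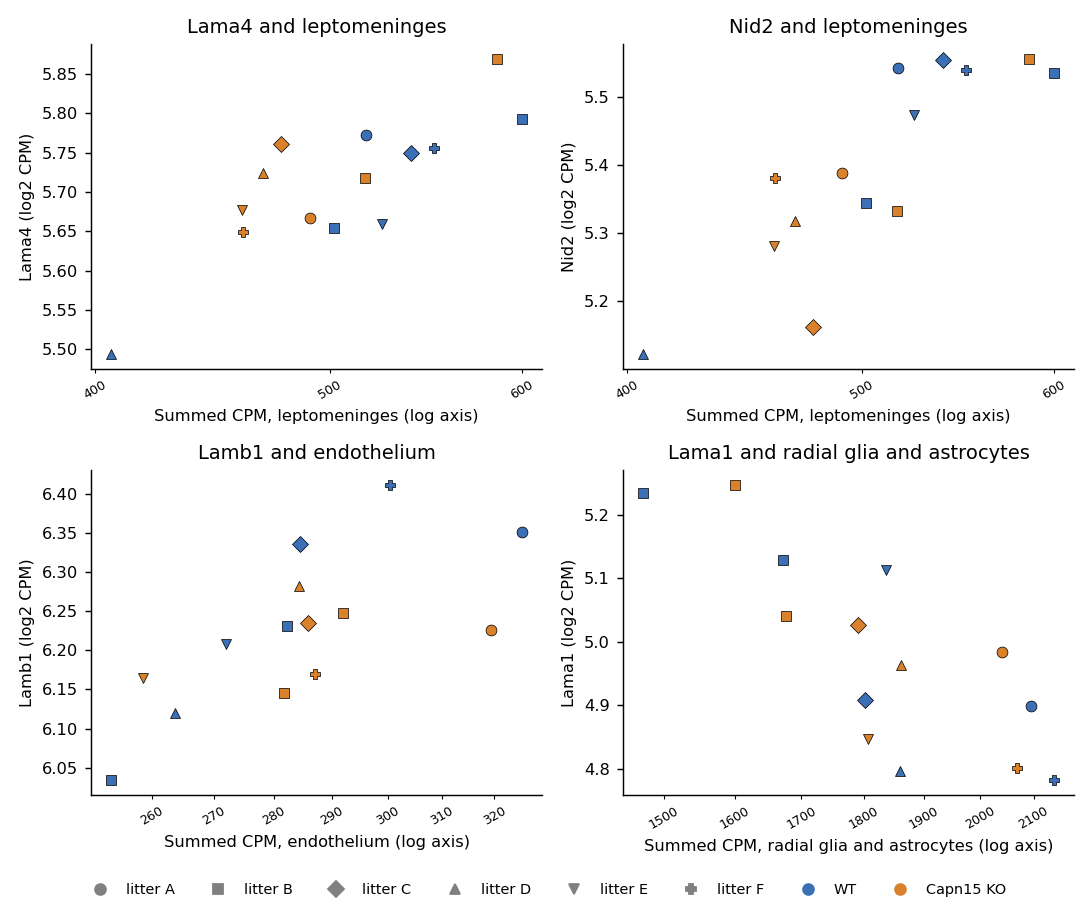
Each point is 1 library, with the summed CPM of a marker list on a log axis against the log2 CPM of a member, colour for group and shape for litter. Lama4, Nid2 and Lamb1 are higher where their list is higher, Lama1 is lower, and WT replicate 5 (blue triangle) is the lowest point for Lama4 and Nid2.

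Of these cell types, choroid plexus differed most between the groups. Its summed markers (8 of 8 above 0 in every library), mostly Ttr, lay between 757 and 996 CPM in WT and between 622 and 867 CPM in Capn15 KO. Of the 8 genes, 7 had an unadjusted p under 0.05, 6 lower and 1 higher, though none passed FDR 0.05. Over all genes 5.14% were at that level, 2.26% lower and 2.88% higher. Without litter F 5 of the 8 were at that level, all lower, and with genotype alone 2. Ttr, the transport protein that the choroid plexus secretes, had the smallest FDR (log2 fold change -0.32, FDR 0.0942), followed by Kcnj13 (-0.31, FDR 0.466) and Aqp1 (-0.25, FDR 0.466). The 4 smooth muscle markers summed to 16.4 to 19.7 CPM in WT and 14.02 to 19.1 CPM in Capn15 KO, with 3 of 4 lower at an unadjusted p under 0.05 (Myh11, Tagln and Acta2, log2 fold changes of -0.18, -0.23 and -0.16), 2 without litter F and 0 with DESeq2, with genotype alone, or without replicate 4 or 6 of either group. The leptomeninges markers summed to 406 to 600 CPM in WT and 460 to 586 CPM in Capn15 KO, with 2 of 8 lower at that level (Slc6a13, -0.14, and Lum, -0.24), beside Col1a1 (0.14). With genotype alone none of these 8 was at that level. Endothelial markers summed to 254 to 325 CPM in WT and 259 to 319 CPM in Capn15 KO, with Cldn5 alone at an unadjusted p under 0.05 (0.10). Cldn5 was not at that level with genotype alone or with the replicate block and sex. Nor was it without WT replicate 2 or 3, or without Capn15 KO replicate 1 or 2. Without replicate 5 of either group Pecam1, lower in Capn15 KO, was at that level in place of Cldn5. In the microglia and skeletal muscle lists 1 gene each was at that level (C1qb, 0.22, and Myh8, 0.27), and in the pericyte, neuron, radial glia, oligodendrocyte and red blood cell lists none, with no FDR under 0.05 in any list. Without litter F, Mbp of the oligodendrocyte list, C1qa of microglia and Hba-a2 of red blood cells also reached that level. The part of the choroid plexus in the estimates of Lamb2 and Lamc1 (-3.16% and 3.32%), which followed its summed markers, mostly Ttr, across libraries, was not tested.

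The other genes of the pathway gave no call by genotype either. The laminin chains Lama3, Lamb3 and Lamc3 did not reach an unadjusted p under 0.05. Per kb of exon their levels were 0.549 CPM for Lama3, 0.256 for Lamb3 and 2.44 for Lamc3. Their log2 fold changes lay between -0.07 and 0.04. Of 21 other basement membrane genes none passed FDR 0.05 and 2 had an unadjusted p under 0.05, beside 5.14% of all genes. They were Col4a3, a minor type IV collagen chain at 1.52 ± 0.220 CPM in WT and 1.17 ± 0.278 in Capn15 KO (log2 fold change -0.45, FDR 0.797), and Smoc2, a matricellular calcium-binding protein (0.18, FDR 0.935). Over the alternatives 1 to 3 genes were at that level. The next, Col18a1, gave -0.10. The median over the list was 0.0036.

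Laminins are bound at the cell surface by integrins, dystroglycan and the Lutheran glycoprotein Bcam. Of 14 receptor genes none passed FDR 0.05. The 3 with an unadjusted p under 0.05 were all lower in Capn15 KO, against 2.26% of all genes: Itgb4, the beta 4 integrin (log2 fold change -0.26), Mcam (-0.09) and Bcam (-0.09), at FDR between 0.938 and 0.959. None of the 14 was at that level without litter F, without replicate 7 of either group or with DESeq2, and 1 was with genotype alone or with litter but without sex. With the replicate block and sex there were 2. Of 13 genes that add the laminin-binding sugar to dystroglycan none passed FDR 0.05 and 1 had an unadjusted p under 0.05, beside 5.14% of all genes. This was Large2, a xylose and glucuronate transferase at 0.816 ± 0.118 CPM in WT and 0.594 ± 0.0717 in Capn15 KO (log2 fold change -0.46, FDR 0.787). Over the alternatives 0 to 2 genes were at that level. Pomgnt1 came next (-0.05). The medians of these lists were -0.029 and -0.014.

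Outside the members, the genes whose log2 CPM followed each member most closely were found over the 14 libraries among genes of at least 1 CPM, with genotype means subtracted. For Hspg2 they were Fn1 (r = 0.90), Col12a1 (0.89) and Tns1 (0.88), for Nid1 Slco2b1 (0.92), Adgra3 (0.89) and Mylk (0.89), and for Nid2 Col1a2 (0.89), Ppic (0.87) and Adamts12 (0.85). Fn1 encodes fibronectin, and Col1a2, a fibrillar collagen chain, is itself in the leptomeninges list. For Lama4 they were Egflam (0.90), Tlr12 (0.89) and M6pr (0.89), for Lama5 Dipk2b (0.89), Hpse (0.87) and Utrn (0.86), and for Lama2 Mras (0.86), Ahnak (0.85) and Abca1 (0.84). Hpse encodes heparanase, which cuts heparan sulfate, and Utrn encodes utrophin, a partner of dystroglycan.

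For Lamc1 the closest were Man2a1 (0.93), Mras (0.91) and Notch2 (0.91), for Lamb2 Wnt5a (0.92), Itih5 (0.90) and Fam91a1 (0.89), and for Lamb1 Serpinf1 (0.90), Edf1 (0.89) and Brip1 (0.88). For Lama1 they were Derl1 (0.94), Ctnna2 (0.94) and Nsg2 (0.93), of which Ctnna2 and Nsg2 are known as neuronal genes. With the summed neuronal markers Lama1 went the other way (r = -0.57, adjusted permutation p = 0.124, and r = 0.090 with litter means subtracted). The r values of Lama1 hardly depended on WT replicate 5 (0.95, 0.93 and 0.94 without it), whereas those of Hspg2 were 0.81, 0.84 and 0.81 without it. Each list holds the highest of 15217 correlations over the same 14 libraries.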

How the data were processed

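The authors used Trimmomatic to cut the 3′ ends of reads at a phred score of 30, aligned them to GRCm38 with STAR and deposited read counts per gene without normalization, 1 column per brain. The study's methods name HTSeq-count, and the submitters' processing notes featureCounts. The methods and the labels also name different library kits. Annotation release, strand setting and gene filter are not given in the sources used here, and reads of overlapping genes on opposite strands may be mixed.

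Group and replicate number came from the labels, litter and sex from the column names. CPM were scaled by library totals multiplied by TMM factors. The members and gene lists were chosen with earlier results of these data known. No library was a copy of another, since even the closest pair had a chi-square per gene of 4.66.

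Counts were fitted with edgeR 4.0.16 in R 4.3.3 (quasi-likelihood, TMM factors, no filter, terms for litter, sex and genotype, Benjamini-Hochberg over all 17927 genes, intervals at 95%). Log2 CPM used a prior count of 2. Single values were tested by exact permutation over 3432 regroupings (smallest p 0.000583) or sign flips of 7 pairs (smallest p 0.0156), and correlations with 100000 permutations, or 768 within litters. All tests were two-sided. DESeq2 1.42.0, limma 3.58.1 (voom), other factors, filters and covariates, and leaving out libraries were alternatives. The tests were first run on simulated data. Same-numbered brains share a litter. Their deviations from the group means correlated at -0.467 to 0.443 per pair over 15227 genes.

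Named genes were the members, Capn15, the genes of each list at FDR under 0.05 or else the 3 with the smallest p, the 3 genes most correlated with each member, and the defining markers. Col3a1 was also named, as the largest part of the leptomeninges sum. Exons and positions came from GENCODE M21, in which 17909 genes were found, and promoters from RefSeq, 6 of 10 members. Python 3.11.15 with numpy 2.4.6, scipy 1.17.1, pandas 2.3.3 and matplotlib 3.10.9 was used. Some genes of the lists are not reported here by name.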

Additional observations from a re-analysis of the deposited data

Results flagged for a closer look

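Lamc1 in WT replicate 5 had a log2 CPM of 6.225, the lowest of its group, with the nearest WT library at 6.39. This gap was 0.598 of the whole WT range, above the 95% critical value of Dixon's test for 7 samples. It was the only value of the 36 group values tested that stood apart, where 1.8 would be expected by chance. Without this library the mean log2 CPM of Lamc1 differed between the groups by -0.0031 (Capn15 KO minus WT), in place of 0.028 with it.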

How the results depend on the processing

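No member passed FDR 0.05 for genotype in any of the 24 alternative settings, DESeq2, limma-voom and edgeR's likelihood ratio test included. Members at an unadjusted p under 0.05 numbered 1 with the settings reported and from 0 to 2 in the others. The fit with the replicate number as a block and sex gave Nid1 a log2 fold change of 0.00014 in place of -0.00044 and changed no other direction or call of the members. Lama2 by genotype was -0.038 with genotype alone and -0.033 with litter but without sex. Without litter F, Lamb1 by genotype was 0.0095 and its difference of mean log2 CPM 0.0034. Of the cell type markers 1 gene, Ttr, passed FDR 0.05 with DESeq2, with the likelihood ratio test and without litter F, in place of 0. Of the members 1, Hspg2, passed for sex with the likelihood ratio test. The cause of these changes was not tested.

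With 1 library left out at a time, log2 fold changes by genotype ran from -0.010 to 0.051 (Lama2), -0.016 to 0.068 (Lama4), -0.10 to 0.0095 (Lamb1), -0.031 to 0.036 (Nid1) and -0.22 to 0.0044 (Nid2), and by sex from -0.019 to 0.075 (Lama4), -0.071 to 0.042 (Lamb1) and -0.14 to 0.11 (Nid2). Differences of mean log2 CPM ran from -0.037 to 0.049 (Lama1), -0.0072 to 0.043 (Lama4), -0.0031 to 0.045 (Lamc1), -0.059 to 0.0083 (Nid1) and -0.0023 to 0.13 (Hspg2). Log2 differences of Lamb2 to Lamb1 ran from -0.067 to 0.022, of the Lama1 share from -0.037 to 0.026 and of the Lama4 share from -0.0033 to 0.034. Members called for litter numbered 1 to 4. Cell type markers called for genotype numbered 0 to 1, the 1 being Ttr without WT replicate 7, Capn15 KO replicate 3 or Capn15 KO replicate 7. Members with an exact permutation p under 0.05 numbered 0 to 1, the 1 being Nid2 without WT replicate 5 (-0.15, exact permutation p = 0.0256). The relations with markers at an adjusted p under 0.05 by Pearson r numbered 8, and 1 without WT replicate 5. For these relations, leaving out that library and subtracting litter means were chosen after seeing the data. So were the ratios per longest transcript and the counts of each marker list without single libraries.

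In the fits with litter terms, leaving out 1 brain of a litter of 2 also takes the other out of the comparison within litters. With 7 brains per group the 95% intervals of the members reached up to 21.4%, and differences inside them were not detectable. The counts describe whole brain at 1 age. Nid2, Nid1, Lamc1, Lama2, Lama5 and Hspg2 overlap other annotated genes, and the sources used here do not say how shared reads were counted.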
